A study of Mus musculus with 8 samples.

Results

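Interleukins are secreted messengers between cells, and each acts through a receptor made of 1 or more membrane chains. The genes described here are those whose symbol starts with Il followed by a digit and whose mean over the 8 livers of the study was 1 normalised read or more. Of 22052 genes, 61 had such a symbol and 54 reached that mean. By known function they were 16 ligands, 34 receptor chains, 2 soluble inhibitors (Il1rn and Il18bp), 1 enzyme (Il4i1, an amino acid oxidase) and 1 noncoding transcript (Il1bos). Il11ra2 lay just inside the limit with a mean of 1.05, and Il31ra lay just outside it with 0.940. The other symbols under the limit were Il12b, Il19, Il5ra, Il22ra2, Il17c and Il23r. Of the 54 genes, 41 had a mean of 10 or more, and 3 reached a mean of 1 in only 1 of the groups: Il11 and Il6 through the dKO livers (defined below) and Il11ra2 through the controls.

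RNA was taken from whole livers of 8 male C57BL/6 mice, adults aged 8 weeks, all given corn oil into the peritoneum. The 4 controls were Zfp36l1 fl/fl and Zfp36l2 fl/fl mice without a recombinase. The 4 dKO mice carried the same floxed alleles and Alb-Cre, a recombinase under the albumin promoter, whose activity is in hepatocytes, and whole liver also holds cells without that activity. The labels number the mice 1 to 4 in each group and name no batch. They do not say that equal numbers pair a control with a dKO mouse.

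ZFP36L1 and ZFP36L2 bring about the decay of mRNAs by binding AU-rich stretches of their 3' untranslated region (UTR), and several cytokine mRNAs are textbook carriers of such stretches. In the liver, hepatocytes carry receptors for IL-6 and IL-1 and answer them with the acute phase proteins, while most interleukins are made by Kupffer cells, recruited leukocytes, stellate cells and endothelial cells. Receptor chains are often shared: gp130 (Il6st) serves the IL-6 and IL-11 receptors, the common gamma chain (Il2rg) serves the receptors of IL-2, IL-4, IL-7, IL-9, IL-15 and IL-21, and the accessory chain Il1rap completes the receptors of IL-1, IL-33 and IL-36.

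The sequence element itself was looked up in the members, since it is what the deleted proteins bind. The heptamer TATTTAT was searched on the transcribed strand of the 3' UTRs of GENCODE release 21 mouse transcripts (M21) on GRCm38, which is the same assembly as mm10, and overlapping matches were each counted. It was present in 30.1% of 15413 tested protein-coding genes with a 3' UTR, and in 18 of 52 interleukin genes with one. Ligands held it in 8 of 16 genes, with 1.83 matches per kilobase, against 0.285 per kilobase over all those genes. Receptor chains held it in 10 of 33, with 0.239 per kilobase. The longer nonamer TTATTTATT was in 8.26% of all those genes and in 4 members, Il11, Il23a, Il27 and Il10ra. A match is a description of the letters and not a shown binding site.

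The following stretches, each 27 bases and written 5' to 3' as DNA with the heptamer in capitals, are those of 4 ligands and of the 2 receptor chains that the results below turn on. They lie at chr7:4773503-4773529 on the minus strand (Il11), chr10:128296185-128296211 on the minus strand (Il23a), chr2:129364809-129364835 on the minus strand (Il1b), chr2:129300080-129300106 on the minus strand (Il1a), chr9:45254124-45254150 on the minus strand (Il10ra) and chr16:26715675-26715701 on the plus strand (Il1rap).
Il11: aaccagatctTATTTATttatttattt
Il23a: agatgatggtTATTTATtctatttata
Il1b: accacttaccTATTTATttatgtattt
Il1a: ataattatatTATTTATggaacatcct
Il10ra: tgggaaccttTATTTATttatttgctc
Il1rap: atggagatcaTATTTATaaacttgaaa
The Il11 stretch shows heptamers that overlap in a row, and the whole Il11 3' UTR of 1194 bases held 6. Of 2094 genes with a 3' UTR within 20% of that length, 0.143% held as many. Il23a held 5 in 657 bases, Il1b 3 in 459, Il1a 3 in 1101, Il10ra 3 in 1693 and Il1rap 4 in 5960. For Il1rap, 10.1% of genes of like length held as many, and for Il1b 0.225% did. Among the other ligands with the heptamer this share was 0.237% for Il23a, 1.40% for Il1a and 35.2% for Il6. It was 0.0961% for Il27 (4 in 285 bases), 0.299% for Il4 (2 in 104) and 0.531% for Il10 (4 in 706). Il27, Il4 and Il10 did not pass the test described below.

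Reads assigned to genes numbered 15253827 to 19299556 per library, and 3 reads, taken as the floor for a gene listed at 0, equal 2.55 to 3.43 normalised reads. Zfp36l1 fell to 16.5% of its control mean and Zfp36l2 to 50.3%, with no overlap between groups (exact permutation test over 70 assignments, 2-sided p = 0.0286 for each, the smallest p this design allows). Zfp36, the third family member, had a log2 difference of -0.26 (adjusted p = 0.123), with an adjusted p of 0.0478 without control 3 and 0.0496 without dKO 2. The hepatocyte marker Alb was abundant in both groups, with a mean of 773160.0 in controls and 824048 in dKO livers. Control 4 stood apart from the other controls in several marker lists: the summed level of 13 neutrophil markers was 97.6, 164 and 110.4 in controls 1 to 3 and 467 in control 4, and that of 11 monocyte and recruited macrophage markers was 1033, 909 and 779 against 2195. It was also the highest control for bile duct markers (1523 against 636 to 788) and for stellate cell markers (7338 against 3793 to 4915), but not for T and NK cell markers (102 within 69.4 to 114), and it was the lowest for Kupffer cell markers (7594). Control 4 was also the highest control for 25 of the 54 interleukin genes, and for 28.2% of all genes tested. Results that rest on it are given below with and without it.

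Interleukin genes differed between the groups in both directions, and mostly upward. Differences are dKO minus control on the log2(value + 0.5) scale, on which changes at low counts look smaller than they are, and a gene was called when its limma p, adjusted over 20055 tested genes, was under 0.05. Of the 54 genes, 24 were called higher, beside 21.2% of all tested genes, 7 were called lower, beside 17.0%, and 23 were not called; the 31 called in either direction compare with 38.2% of all tested genes. The median difference was 0.81, against 0.03 over all tested genes. All 4 dKO values lay above all 4 control values for 19 of them, beside 19.4% of all tested genes, and below for 4, beside 16.9%; these 23 compare with 36.4% of all tested genes in either direction. Among the 41 members at a mean of 10 or above, 21 were called higher, beside 26.3% of such genes, and 7 lower, beside 22.7%. A gene that reached the mean through 1 group alone had to differ, so the counts were also taken without Il11, Il6 and Il11ra2, a choice made after seeing the data: of the other 51 genes, 22 were called higher and 7 lower, with a median of 0.75. In whole tissue, more cells of a type and more RNA per cell cannot be told apart.

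**Figure D1:**
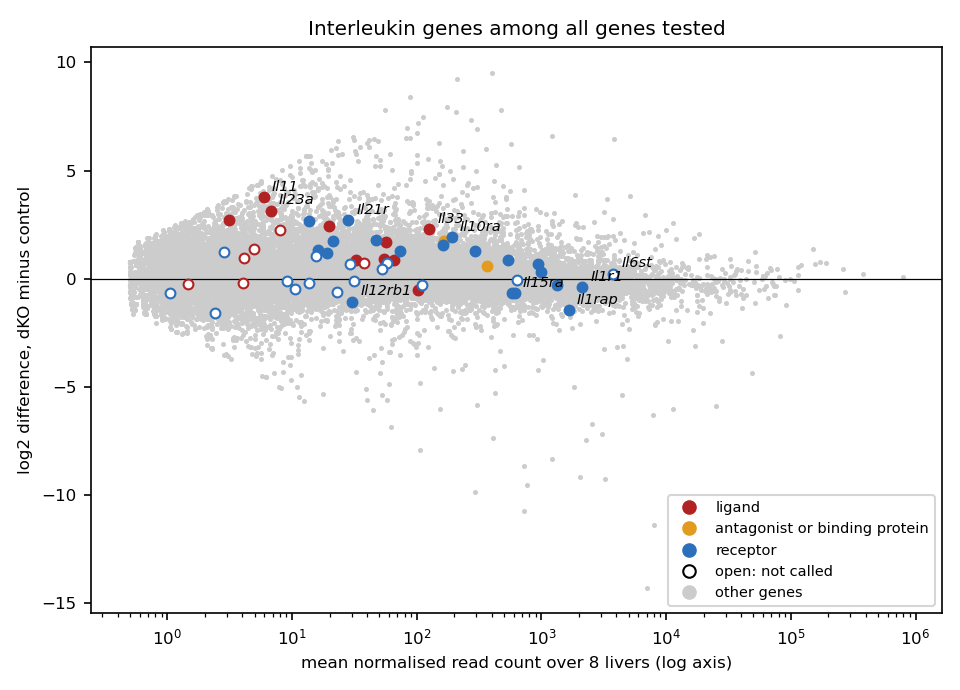
Each point is a gene, with its mean normalised read count over 8 livers on a log axis and its log2 difference, dKO minus control, on the other. Ligands, receptor chains and soluble inhibitors are coloured, open circles are not called by limma, and grey points are the other genes tested; Il4i1 and Il1bos are not coloured. Ligands sit mainly at low counts and above 0, and 5 of the 6 receptor chains called lower sit at the right, such as Il1rap at -1.44, while Il12rb1 lies further left.

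The calls were then split by class. Of 16 ligands, 9 were called higher and 1 lower, with a median of 1.16. Of 34 receptor chains, 13 were called higher and 6 lower, with a median of 0.38. Of all tested genes, 21.2% were called higher and 17.0% lower. The receptor chains called lower were 17.6% of their class, near the share of all tested genes. At a mean of 10 or more, 13 of 30 receptor chains were called higher, beside 26.3% of such genes, and 6 lower, beside 22.7%. Without the genes that reached the mean through 1 group alone, 7 of 14 ligands were called higher and 1 lower, with a median of 0.93, and 13 of 33 receptor chains higher and 6 lower, with a median of 0.45. Both soluble inhibitors were called higher. Without control 4, 10 ligands were called higher and 0 lower, and 14 receptor chains higher and 4 lower. The count of interleukin genes called lower fell from 7 to 4 without control 1, without control 4 or without dKO 2. After quantile normalisation, which moved the median of all genes by -0.11, 6 ligands and 12 receptor chains were called higher. The difference between the classes was not tested, since genes are not replicates of a condition.

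**Figure D2:**
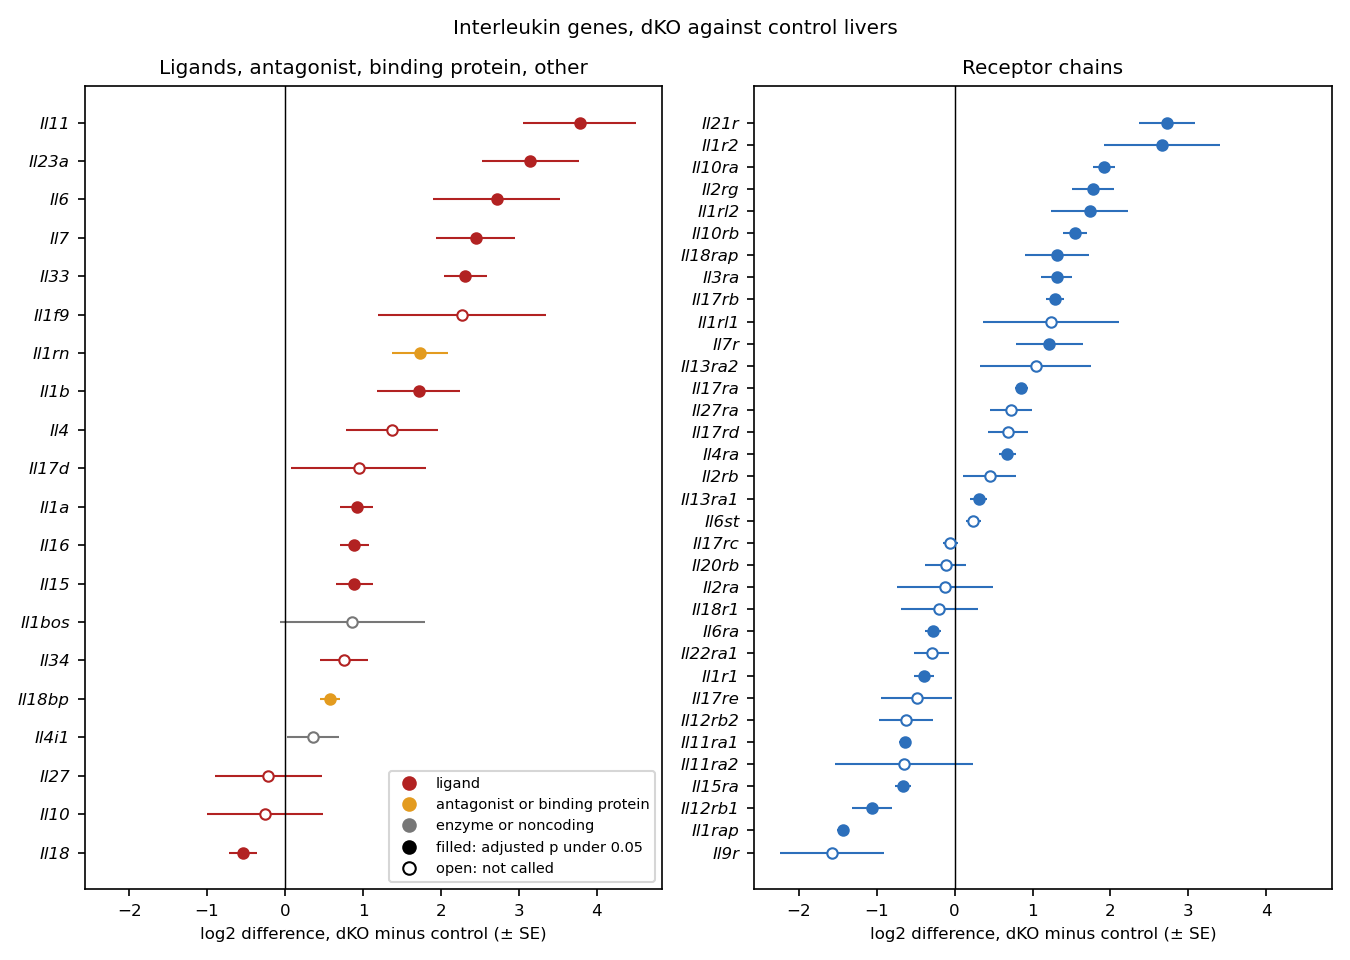
Log2 difference of each of the 54 interleukin genes, dKO minus control, with its standard error from limma; ligands, soluble inhibitors and other members are in 1 panel and receptor chains in the other. Filled points were called at an adjusted p under 0.05 and open points were not. The ligands reach from -0.53 (Il18) to 3.78 (Il11), and the receptor chains from -1.57 (Il9r) to 2.73 (Il21r).

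The most abundant members were receptor chains, and most ligands had low levels. Levels of different genes are compared as normalised reads per kilobase of exon, mean ± SD over 4 livers. In controls the highest were Il1r1 at 380.0 ± 58.6, Il6st, the gp130 chain, at 310.0 ± 22.7, Il17rc at 244 ± 16.4, Il13ra1 at 241 ± 32.6 and Il1rap at 213 ± 10.3. Neighbours in this order overlapped in mean ± SD, other than Il6st and Il17rc. Il18, the most abundant ligand per kilobase, stood at place 10 with a mean of 117. In dKO livers the order was Il6st at 367 ± 44.7, Il13ra1 at 298 ± 29.9, Il1r1 at 289 ± 40.7 and Il17rc at 235 ± 26.4, neighbours again overlapping in mean ± SD, and Il1rap had gone from place 5 to place 14 at 78.6 ± 4.44.

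**Figure D3:**
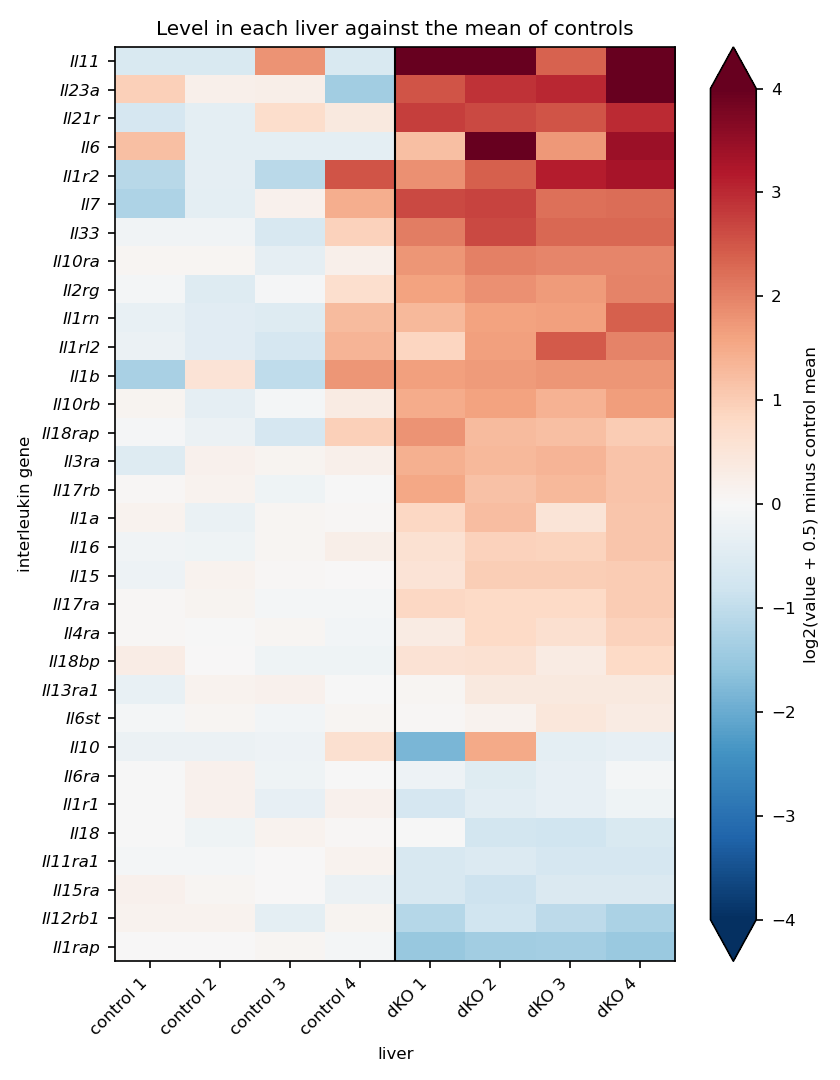
Level in each liver as log2(value + 0.5) minus the mean of the 4 controls, for the 32 interleukin genes whose values are given liver by liver; the colour scale ends at 4 on both sides. Control 4 is redder than controls 1 to 3 for Il1r2, Il1rn, Il1b, Il1rl2 and Il33, and the Il1rap row is blue in all 4 dKO livers.

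Among the ligands, the largest log2 differences were those of Il11, Il23a and Il6, which had few reads. Il11 and Il6 are members only through their dKO values, so their direction and part of their size follow from how the genes were chosen, and their tests support nothing here. Il11, a gp130 cytokine (ENSMUSG00000004371, chr7:4772373-4782859, minus strand), had normalised reads of 0, 0, 2.10 and 0 in controls 1 to 4, against 13.1, 12.9, 3.41 and 15.8 in dKO 1 to 4. It was listed at 0 in all controls but 1, and every dKO value was above every control value (log2 difference 3.78, SE 0.72, adjusted p = 0.00121). The reads behind this were 2 reads over the 4 controls and 48 over the 4 dKO livers, a ratio of 20.9 per library size with a 95% counting interval of 5.49 to 178. Without control 3, the only control with Il11 reads, the log2 difference was 4.38.

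Il23a, the chain that sets IL-23 apart from IL-12, showed normalised reads of 2.05, 1.03, 1.05 and 0 in controls 1 to 4, against 7.04, 9.25, 10.2 and 23.3 in dKO 1 to 4. All dKO livers were above all controls, with dKO 4 the highest (log2 difference 3.15, SE 0.62, adjusted p = 0.00156). The reads behind this were 4 over the 4 controls and 54 over the 4 dKO livers. That was a ratio of 11.8 per library size with a 95% counting interval of 4.34 to 44.8. Every control value of Il23a lay under the floor of 3 reads. Il23a stayed among the members with a mean of 1 or more in both groups by a control mean of 1.03. Its partner chain Il12b did not reach a mean of 1. Il6, the main inducer of the acute phase response, stood at 1.03, 0, 0 and 0 in controls 1 to 4, against 1.01, 14.8, 1.70 and 6.52 in dKO 1 to 4, so that dKO 2 and dKO 4 were high and dKO 1 and dKO 3 lay near the controls. Since Il6 is a member only through its dKO values, its test supports nothing here, and the numbers that follow are description. Il6 was called (log2 difference 2.72, SE 0.81, adjusted p = 0.0184) on 1 read over the 4 controls and 26 over the 4 dKO livers. That is a ratio of 22.7 per library size with a 95% counting interval of 3.73 to 930.2. That call was lost without dKO 2 (log2 difference 2.11, adjusted p = 0.0633) and without dKO 4 (adjusted p = 0.0575), and its adjusted p over the alternatives ran from 0.0115 to 0.0633.

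In the IL-1 system, agonists, antagonist and decoy receptor were called higher and both chains of the signalling receptor lower. Il1a and Il1b are the agonists, Il1rn encodes the receptor antagonist, Il1r2 is a decoy that binds IL-1 without signalling, and Il1r1 with Il1rap forms the signalling receptor. Il1a was at 41.1, 30.8, 38.9 and 37.7 in controls 1 to 4, against 65.4, 87.8, 52.8 and 80.1 in dKO 1 to 4. Its groups did not overlap (log2 difference 0.92, SE 0.22, adjusted p = 0.00494), although quantile normalisation ended the call (adjusted p = 0.0753). An antisense gene shares 11.2% of its exonic bases, and reads of the pair cannot be told apart, since the sources used here give no strand setting.

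Il1b (chr2:129364570-129371139, minus strand) had normalised reads of 9.24, 34.9, 11.6 and 81.2 in controls 1 to 4, against 74.4, 77.7, 80.9 and 81.9 in dKO 1 to 4. The 4 dKO livers lay within a narrow range, and control 4 was level with them while controls 1 and 3 were low. The difference was called (log2 difference 1.71, SE 0.53, adjusted p = 0.0224) but was lost in 10 of 20 alternatives, among them leaving out control 1, control 3 or any 1 of the 4 dKO livers, with adjusted p from 0.00126 to 0.0819 over the alternatives. Without control 4 the log2 difference was 2.30. Il1rn was at 57.5, 52.3, 49.4 and 172 in controls 1 to 4, against 174, 219, 221 and 379 in dKO 1 to 4, again with control 4 above the other controls and close to dKO 1, and it was higher in dKO livers (log2 difference 1.73, SE 0.36, adjusted p = 0.00204). The antagonist rose 3.00-fold by its mean, from 82.7 ± 59.3 to 248 ± 89.8 normalised reads, and its log2 difference was 2.15 without control 4.

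Il1r2, the decoy, measured 1.03, 2.05, 1.05 and 18.3 in controls 1 to 4, against 11.1, 16.6, 28.1 and 31.7 in dKO 1 to 4. Control 4 fell inside the dKO range and the other controls were under 3 normalised reads. The call held in all 20 alternatives (log2 difference 2.66, SE 0.74, adjusted p = 0.013), with a log2 difference of 3.50 without control 4. By contrast the accessory chain Il1rap (ENSMUSG00000022514, chr16:26581704-26730117, plus strand) fell in every dKO liver, from 2415, 2426, 2554 and 2267 in controls 1 to 4 to 843, 929, 942 and 856 in dKO 1 to 4. This was 36.9% of the control mean, and Il1rap had the smallest adjusted p of all interleukin genes (log2 difference -1.44, SE 0.07, adjusted p = 3.5e-08). An antisense gene shares 4.86% of its exonic bases and was also lower, at 263 against 551 normalised reads.

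Il1r1, the signalling chain, was at 2384, 2687, 1903 and 2698 in controls 1 to 4, against 1518, 1782, 1913 and 2138 in dKO 1 to 4. Control 3 lay among the dKO livers, and the call (log2 difference -0.39, SE 0.12, adjusted p = 0.0248) was lost in 8 of 20 alternatives, among them leaving out control 1, control 2, control 4, dKO 1 or dKO 2 (adjusted p 0.0554 to 0.0931 in those). Per kilobase, Il1r1 stayed far above Il1rap in dKO livers (289 ± 40.7 against 78.6 ± 4.44).

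**Figure D4:**
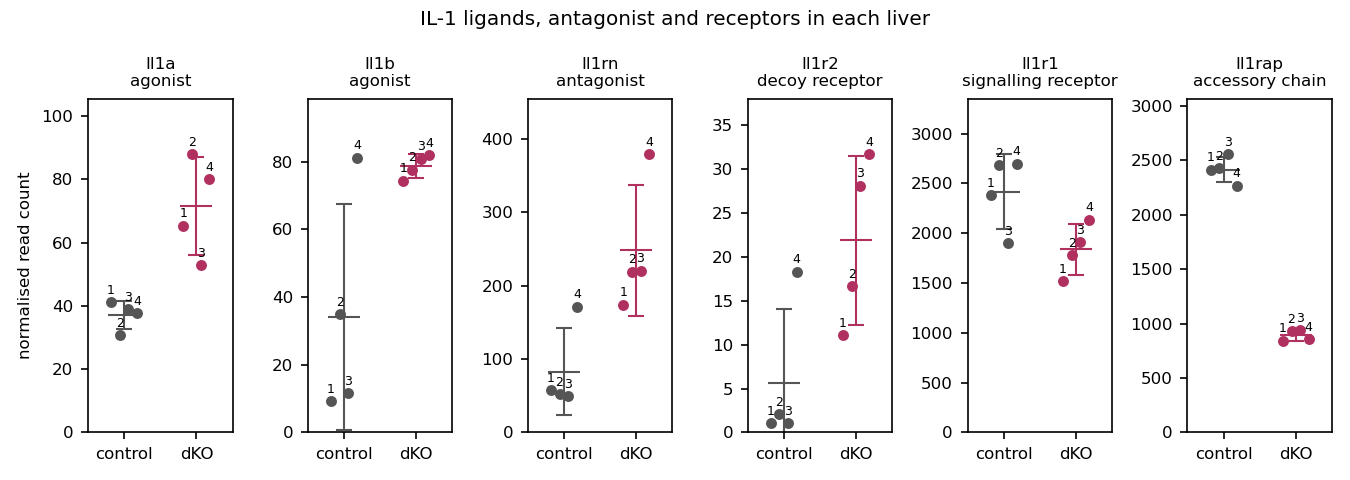
Normalised read count of 6 IL-1 genes in each liver, numbered 1 to 4, with the mean and SD of each group (n = 4); SD bars that would pass below 0 are not drawn further. Control 4 lies at or near the dKO livers for Il1b, Il1rn and Il1r2, and the groups are fully apart for Il1a, Il1rn and Il1rap.

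Other IL-1 family members act at barriers and on innate lymphoid cells. Il33, an alarmin held in the nucleus of stromal cells (chr19:29925114-29960718, plus strand), measured 37.0, 36.9, 26.3 and 77.8 in controls 1 to 4, against 169.9, 255, 201 and 202 in dKO 1 to 4. It rose 4.65-fold with no overlap (log2 difference 2.31, SE 0.28, adjusted p = 3.5e-05). Its receptor chain Il1rl1 had few reads, at most 8.01 in any liver, and was not called (adjusted p = 0.297), with a log2 difference of 2.06 and an adjusted p of 0.0468 without control 4. Il1rl2, the IL-36 receptor chain, had normalised reads of 7.19, 6.16, 5.26 and 22.9 in controls 1 to 4, against 16.1, 27.7, 49.4 and 35.4 in dKO 1 to 4. Control 4 was above dKO 1, and the call (log2 difference 1.73, SE 0.49, adjusted p = 0.0141) was lost without dKO 3 (adjusted p = 0.0537, the highest over its alternatives, from 0.00223), and its log2 difference was 2.19 without control 4. Il1f9, which encodes IL-36 gamma, had 28.6 normalised reads in control 4, at most 1.03 in the other controls and 5.55 to 10.2 in dKO livers. It was not called (adjusted p = 0.117) with all livers and had a log2 difference of 3.61 (adjusted p = 9.9e-04) without control 4.

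In the IL-18 system the ligand was called lower, and its binding protein and a receptor chain higher. Il18 stood at 119, 108, 133 and 124 in controls 1 to 4, against 119, 72.1, 69.8 and 79.1 in dKO 1 to 4. In dKO 1 it was level with the controls, and in the other dKO livers it was lower. It was the only ligand called lower (log2 difference -0.53, SE 0.18, adjusted p = 0.0343), and the call was lost in 8 of 20 alternatives, including leaving out any liver other than control 2 and dKO 1 (adjusted p 0.0681 to 0.0929 in those). Il18bp, the protein that neutralises IL-18, was at 354, 292, 258 and 258 in controls 1 to 4, against 433, 435, 364 and 507 in dKO 1 to 4, with no overlap between the groups (log2 difference 0.58, SE 0.13, adjusted p = 0.00309). Il18rap, the accessory chain of its receptor, measured 8.21, 7.18, 5.26 and 17.2 in controls 1 to 4, against 31.2, 21.3, 20.4 and 17.7 in dKO 1 to 4, with dKO 4 just above control 4 (log2 difference 1.32, SE 0.41, adjusted p = 0.0219). That call was lost after quantile normalisation and without control 2, control 3 or dKO 1 (adjusted p up to 0.09, from 0.00499 at the lowest). The binding chain Il18r1 had 16.0 ± 11.7 in controls and 11.6 ± 2.50 in dKO livers and was not called. Il18r1 and Il18rap lie on the plus strand of chromosome 1 with Il1r2, Il1r1, Il1rl2 and Il1rl1, from position 40074079 to 40551705. Of these 6 neighbours 3 were called higher, 1 lower and 2 not, beside 21.2% of all tested genes called higher and 17.0% lower. The calls of Il1rl2, Il18rap and Il1r1 were each lost in at least 1 alternative.

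Of 9 genes of the common gamma chain family, 5 were called higher and 1 lower, beside 21.2% and 17.0% of all tested genes. After quantile normalisation, 3 of the 9 were called higher and 2 lower. Il21r, the IL-21 receptor of lymphocytes and myeloid cells, had normalised reads of 4.11, 5.13, 11.6 and 9.15 in controls 1 to 4, against 50.3, 45.3, 41.7 and 58.7 in dKO 1 to 4. Every dKO liver was above every control, a 6.54-fold difference by means (log2 difference 2.73, SE 0.36, adjusted p = 8.1e-05). Il2rg, the shared chain, was at 19.5, 14.4, 19.98 and 33.2 in controls 1 to 4, against 64.4, 75.8, 68.1 and 82.9 in dKO 1 to 4, again without overlap (log2 difference 1.78, SE 0.27, adjusted p = 2.1e-04). Il7, a growth factor for lymphocytes made by stromal cells and hepatocytes, measured 2.05, 4.10, 6.31 and 16.0 in controls 1 to 4, against 37.2, 38.8, 27.3 and 27.9 in dKO 1 to 4. Control 4 was the highest control and still below every dKO liver (log2 difference 2.45, SE 0.51, adjusted p = 0.00218).

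Il15 and its presenting chain moved in opposite directions. Il15 was at 19.5, 24.6, 23.1 and 22.9 in controls 1 to 4, against 33.2, 45.3, 45.1 and 45.6 in dKO 1 to 4, with dKO 1 the lowest dKO liver and still above the controls (log2 difference 0.89, SE 0.24, adjusted p = 0.0105), and quantile normalisation ended the call (adjusted p = 0.16, the highest over its alternatives, from 0.00298). Il15ra, which carries IL-15 to neighbouring cells, fell from 836, 778, 744 and 632 in controls 1 to 4 to 475, 415, 502 and 494 in dKO 1 to 4. The groups did not overlap (log2 difference -0.66, SE 0.10, adjusted p = 2.4e-04). Il7r was called with a log2 difference of 1.22 (adjusted p = 0.0417), with 6.16 to 17.2 normalised reads in controls and 15.3 to 44.7 in dKO livers, and lost the call in 8 of 20 alternatives (adjusted p 0.0217 to 0.16). Leaving out control 1, 2 or 3 or dKO 1, 2 or 4 was enough (adjusted p 0.0535 to 0.139 in those). Il2rb (47.3 ± 24.6 in controls and 58.9 ± 11.4 in dKO livers) and Il2ra (9.64 ± 7.03 in controls and 8.75 ± 6.01 in dKO livers), chains of the IL-2 receptor, were not called. Il9r, the IL-9 binding chain, had 3.69 ± 1.79 in controls and 1.10 ± 1.06 in dKO livers and was not called (adjusted p = 0.0809), but was called without dKO 3 (adjusted p = 0.0414), within a range of 0.0279 to 0.23 over its alternatives.

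Both chains of the IL-10 receptor rose while the ligand did not pass the test. Il10ra, the binding chain found mainly on leukocytes (chr9:45253837-45269149, minus strand), had normalised reads of 83.2, 84.1, 61.0 and 91.5 in controls 1 to 4, against 272, 319, 307 and 307 in dKO 1 to 4. The lowest dKO liver was far above the highest control, a 3.77-fold difference by means (log2 difference 1.92, SE 0.14, adjusted p = 7.8e-07), and Il10ra had the smallest adjusted p among interleukin genes called higher. Il10rb, the second chain, which also serves the IL-22 receptor, was at 89.3, 64.6, 77.8 and 105 in controls 1 to 4, against 235, 252, 219.7 and 264 in dKO 1 to 4, without overlap (log2 difference 1.54, SE 0.16, adjusted p = 8.9e-06). Il10 itself, the anti-inflammatory ligand, showed normalised reads of 1.03, 1.03, 1.05 and 2.29 in controls 1 to 4, against 0, 4.62, 0.852 and 0.931 in dKO 1 to 4. These are values at or near the floor, and the difference between groups could not be resolved at this depth (adjusted p = 0.82). Its mean was 1.35 ± 0.626 in controls, 1.60 ± 2.06 in dKO livers, and its log2 difference was -0.26, so the mean and the log2 difference had opposite signs. Il22ra1, the chain by which hepatocytes receive IL-22, had 124 ± 44.6 in controls and 97.3 ± 13.4 in dKO livers and was not called (adjusted p = 0.342), and neither was Il20rb, with 33.2 ± 10.3 in controls and 29.8 ± 1.98 in dKO livers.

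Of the 4 receptor chains for IL-6 and IL-11 (Il6ra, Il6st, Il11ra1 and Il11ra2), 2 were called lower and 0 higher. Of all tested genes, 17.0% were called lower and 21.2% higher. Without control 4, 1 of the 4 chains was called lower and 0 higher. After quantile normalisation 1 was called lower and 1 higher. Il6ra, the IL-6 binding chain of hepatocytes, measured 1449.9, 1643, 1301 and 1456 in controls 1 to 4, against 1268, 1034, 1162 and 1387 in dKO 1 to 4. The groups overlapped, and the call (log2 difference -0.27, SE 0.10, adjusted p = 0.0474) was lost in 11 of 20 alternatives, with adjusted p from 0.0231 to 0.14. Leaving out any liver other than control 3 and dKO 4 was enough (adjusted p 0.0693 to 0.14 in those). Il6st, the shared signalling chain, was at 3244, 3659, 3202 and 3659 in controls 1 to 4, against 3565, 3782, 4660.0 and 4302 in dKO 1 to 4. Its groups overlapped and it was not called (log2 difference 0.24, SE 0.09, adjusted p = 0.0599), though it was called without dKO 1 (log2 difference 0.30, adjusted p = 0.0294), within a range of 0.00698 to 0.158 over its alternatives. Il11ra1, the binding chain for IL-11, fell from 671, 668, 705 and 767 in controls 1 to 4 to 453, 479, 440.3 and 437 in dKO 1 to 4, without overlap (log2 difference -0.63, SE 0.08, adjusted p = 5.2e-05). Il11ra2 is a near copy of Il11ra1, so reads may be split between them, and it had at most 4.21 normalised reads in any liver.

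IL-17 receptor chains rose in part. Il17ra, the chain shared by the IL-17 receptors, had normalised reads of 392, 405, 362 and 361 in controls 1 to 4, against 681, 659, 653 and 763 in dKO 1 to 4. Il17rb, which binds IL-25, was at 175, 188, 149 and 169 in controls 1 to 4, against 496, 380.0, 422 and 371 in dKO 1 to 4. Neither gene had overlapping groups (log2 difference 0.86, SE 0.09, adjusted p = 7.8e-06 for Il17ra, and log2 difference 1.29, SE 0.12, adjusted p = 4.3e-06 for Il17rb). Il17rd was 18.5 to 26.3 in controls and 31.2 to 41.0 in dKO livers, so its groups were apart, yet it was not called (adjusted p = 0.0529). It was called without control 3 (adjusted p = 0.0497) and without control 4 (adjusted p = 0.0476), within a range of 0.0177 to 0.481 over its alternatives. Il17rc, among the most abundant receptor chains, had 650.4 ± 43.7 in controls and 628 ± 70.6 in dKO livers and was not called (adjusted p = 0.685), nor were Il17re (11.9 ± 2.88 in controls and 9.07 ± 4.49 in dKO livers) and the ligand Il17d (3.62 ± 4.64 in controls and 4.66 ± 2.95 in dKO livers).

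Of 3 receptor chains for IL-4 and IL-13, which drive alternative activation of macrophages, 2 were called higher, beside 21.2% of all tested genes. Without control 4, 1 of the 3 was called higher. Il4ra, the chain common to both cytokines, had normalised reads of 738, 697, 751 and 659.9 in controls 1 to 4, against 898, 1238, 1119.9 and 1344 in dKO 1 to 4. The groups were apart (log2 difference 0.68, SE 0.11, adjusted p = 4.4e-04). Il13ra1 was at 729, 973, 996 and 884 in controls 1 to 4, against 938, 1161, 1164 and 1155 in dKO 1 to 4. Here dKO 1 was below 2 controls, and the call (log2 difference 0.31, SE 0.11, adjusted p = 0.0417) was lost in 7 of 20 alternatives, among them leaving out control 1, control 4, dKO 2, dKO 3 or dKO 4 (adjusted p 0.0828 to 0.124 in those). The ligand Il4 had 2.35 ± 1.25 in controls and 7.51 ± 4.97 in dKO livers, with a log2 difference of 1.37 that was not called (adjusted p = 0.0854), and the decoy chain Il13ra2, with 11.8 ± 7.45 in controls and 19.1 ± 9.18 in dKO livers, was not called either.

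Of the remaining members, Il3ra and Il16 rose and an IL-12 receptor chain fell. Il3ra, the IL-3 binding chain of myeloid cells, was at 28.8, 47.2, 45.2 and 48.0 in controls 1 to 4, against 112, 103, 108 and 92.2 in dKO 1 to 4, without overlap (log2 difference 1.31, SE 0.20, adjusted p = 2.5e-04). Il16, a lymphocyte attractant, measured 41.1, 40.0, 47.3 and 53.8 in controls 1 to 4, against 69.4, 86.9, 85.2 and 97.8 in dKO 1 to 4, without overlap (log2 difference 0.89, SE 0.19, adjusted p = 0.00236), and shares 15.3% of its exonic bases with the antisense gene Stard5. Il12rb1, which serves the IL-12 and IL-23 receptors of lymphocytes, had normalised reads of 45.2, 45.1, 30.5 and 43.5 in controls 1 to 4, against 18.1, 23.1, 19.6 and 16.8 in dKO 1 to 4. All dKO livers were below all controls (log2 difference -1.06, SE 0.26, adjusted p = 0.006), the opposite direction to the ligand chain Il23a.

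The members that did not pass the test included several with few reads or wide spread. Il27ra had 44.0 ± 13.1 in controls and 72.2 ± 19.5 in dKO livers and an adjusted p of 0.0529, and was called without control 2 (adjusted p = 0.0407) and without dKO 2 (adjusted p = 0.0343), within a range of 0.0333 to 0.352. Il34, a ligand of the macrophage receptor Csf1r, had 28.7 ± 12.6 in controls and 46.3 ± 7.95 in dKO livers and an adjusted p of 0.0704, and was called without control 3 (adjusted p = 0.0152, the lowest over its alternatives, up to 0.425). Il12rb2 had 27.6 ± 6.64 in controls and 18.3 ± 6.00 in dKO livers and was not called, and it shares 40.0% of its exonic bases with the abundant antisense gene Serbp1. Il4i1 had 28.6 ± 14.0 in controls and 34.2 ± 5.15 in dKO livers and was not called, and shares 83.9% with Tbc1d17, so its value may hold reads of that gene. Il27 had 4.34 ± 2.86 in controls and 3.74 ± 2.78 in dKO livers, Il1bos had 1.05 ± 1.49 in controls and 2.50 ± 2.88 in dKO livers, and neither was called.

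Interleukin genes with the heptamer were called in both directions, as were those without it. Of the 8 ligands with it, 5 were called higher and 0 lower, with a median log2 difference of 1.54. Of the 8 ligands without it, 4 were called higher and 1 lower, with a median of 0.92. Of 10 receptor chains with the heptamer, 4 were called higher and 3 lower, Il1rap among the latter, and of 23 without it, 9 were called higher and 3 lower. Il10, with 4 matches, and Il27, with 4, were not called, and Il33, Il7 and Il1rn, all called higher, held none. Without Il11 and Il6, which hold the heptamer and are members only through the dKO livers, 3 of 6 ligands with it were called higher and 0 lower, with a median of 1.15. After quantile normalisation, 3 of 8 ligands were called higher in each class, with a median of 1.16 with the heptamer and 0.56 without it, and receptor chains called higher were 2 of 10 with it and 10 of 23 without it. All these stand beside the 21.2% of tested genes called higher and the 17.0% called lower. They are counts, and no test of the heptamer was made.

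Genes that carry or restrain the signals of these receptors were followed as lists chosen with earlier results of these data known: 75 tested genes, of which 35 were called higher and 15 lower, beside the 21.2% and 17.0% of all tested genes. Among JAK and STAT transducers 3 of 11 rose and 3 fell. Jak3, which is bound by the common gamma chain, went from 364 ± 41.9 to 733 ± 63.9 (log2 difference 1.01), and Stat6, the transducer of IL-4, rose by 0.31. Stat5b and Stat5a fell by 0.69 and by 0.71 on the log2 scale. Of the SOCS and PIAS inhibitors, 4 of 12 rose and 1 fell. Socs5 rose by 1.09, Socs2 by 1.78 and Socs3, a feedback inhibitor of gp130 signals, by 1.22, while Pias3 fell by 0.62.

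Below the IL-1 receptor, 3 of 14 adaptors and kinases rose and 7 fell. The share that rose was near the 21.2% of all tested genes called higher, and 17.0% of all tested genes were called lower. The other lists of this paragraph stand beside the same shares. Irak3, an inhibitory kinase of this pathway, went from 26.3 ± 10.3 to 251 ± 60.0 (log2 difference 3.27, SE 0.25, adjusted p = 1.1e-06). Tollip, another restraint, rose by 0.40, and the kinase complex genes Tab2 and Map3k7 fell by 0.67 and by 0.37 on the log2 scale. Of the inflammasome and caspase genes listed for the processing of pro-IL-1 beta and pro-IL-18, 9 of 12 rose and 1 fell. Their summed level was 5575 to 6267 normalised reads in controls and 5515 to 6047 in dKO livers. The genes that rose included the pyrin gene Mefv (2.77), Casp4 (2.25), Nlrp1b (1.54) and the pore gene Gsdmd (0.47), as log2 differences. After quantile normalisation 5 of these 12 were called higher and 0 lower. In the IL-17 list 5 of 9 rose and 0 fell, with Tnfaip3 at 2.53, Cebpd at 1.65, Nfkbiz at 1.07 and Cebpb at 0.55.

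Partners of interleukins that carry other names include shared receptor chains. Of 17 tested genes, 11 rose and 3 fell, beside 21.2% of all tested genes called higher and 17.0% called lower. Csf2rb2, the mouse IL-3 receptor beta chain, went from 56.5 ± 23.5 to 422 ± 77.6, a log2 difference of 2.95, and the oncostatin M receptor Osmr from 84.5 ± 36.0 to 421 ± 83.2, a difference of 2.37. Csf1r, the receptor of CSF-1 and IL-34, rose by 1.10. Lifr, the gp130 partner for LIF, fell from 5492 ± 762 to 2275 ± 242, a log2 difference of -1.27.

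Markers of other cells moved with these changes and their values stand beside them. The summed level of the 13 neutrophil markers was 97.6 to 467 in controls and 836 to 1183 in dKO livers, all 13 were called higher (11 after quantile normalisation), beside 21.2% of all tested genes, and Ltf, Ly6g and Mpo were at 0 in all controls. The calls of Mmp9, Retnlg and Ly6g were each lost on leaving out any of several single livers (adjusted p 0.0532 to 0.109 in those). Monocyte and recruited macrophage markers summed to 779 to 2195 in controls and 5571 to 8136 in dKO livers, with 10 of 11 called higher. Kupffer cell markers summed to 7594 to 8701 and 12111 to 18727, with 6 of 9 higher (6 higher and 1 lower after quantile normalisation). The defining marker Clec4f was not called (2208 ± 286 and 2144 ± 571). Timd4, with a log2 difference of -0.81, was not called (adjusted p = 0.104), but was called lower without dKO 4 (-1.09, adjusted p = 0.0409). Vsig4, at 0.31, was not called, but was called higher without dKO 2 (adjusted p = 0.0256) and without dKO 3 (adjusted p = 0.0394). Stellate cell markers summed to 3793 to 7338 and 11544 to 14369, with 7 of 10 higher, and bile duct markers to 636 to 1523 and 7811 to 12155, with 6 of 6 (4 after quantile normalisation). Krt7 lost its call on leaving out any liver other than control 4, and Krt19 without control 2, control 3, dKO 1 or dKO 4 (adjusted p 0.0542 to 0.132 in those).

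T and NK cell markers summed to 69.4 to 114 in controls and 150 to 177 in dKO livers, with 3 of 15 called higher, a share near the 21.2% of all tested genes, and 1 of 15 after quantile normalisation. B and plasma cell markers summed to 166 to 276 and 163 to 229, with 1 of 7 called higher and 4 lower. Sinusoidal endothelial markers had 3 of 8 higher and 2 lower, and hepatocyte markers 1 of 8 higher and 2 lower. Of all tested genes, 21.2% were called higher and 17.0% lower. Without control 4, 3 B and plasma cell markers and 1 sinusoidal endothelial marker were called lower, and 0 hepatocyte markers higher. The calls of Cd4, Trac, Ms4a1, Clec4g and Tat were each lost on leaving out any of several single livers (adjusted p 0.0515 to 0.139 in those). The part of the cells named by these lists in the rise of Il1b, Il1rn, Il1r2, Il10ra, Il21r, Il2rg and Il3ra was not tested. Nor was that of stromal cells in the rise of Il33, Il7, Il6 and Il11. The part of hepatocytes in the fall of Il1rap, Il15ra, Il11ra1 and Il18 was not tested either.

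**Figure D5:**
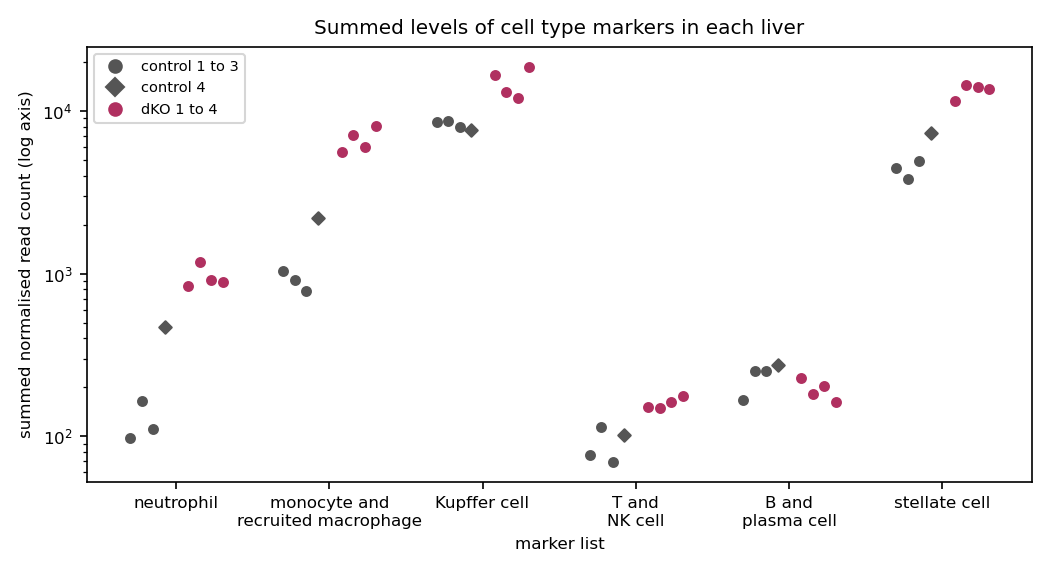
Summed normalised read count of 6 cell type marker lists in each of the 8 livers, on a log axis, with control 4 as a diamond. Control 4 lies above the other controls for neutrophil and monocyte markers and below every dKO liver in both (467 against 836 or more, and 2195 against 5571 or more).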

How the data were processed

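Whole-liver RNA of 4 control and 4 dKO mice was sequenced. The submitters' processing notes name HISAT2 2.0.5, fastp, DESeq2 and featureCounts 1.5.0-p3, and build mm10; the sources used here give no annotation, strand setting or filter. The table is named for FPKM, but the authors deposited a signal of another kind: each library's values are whole multiples of 1 step (all within 0.001 of a whole number), so they are gene read counts divided by 1 size factor per library, called normalised reads here. The planned test on a log scale was kept. For dKO 1 the step is too near 1 to part from rounding.

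Of 22052 identifiers, 21796 matched a symbol. For 20055 genes with a mean of 0.5 or more, log2(value + 0.5) was fitted with limma 3.58.1 (R 4.3.3; lmFit and a trended eBayes). Tests were 2-sided and p-values were adjusted over all of them by Benjamini-Hochberg, with a threshold of 0.05. The fit and its count alternatives were tested on simulated data. Alternatives were other pseudocounts and filters, quantile, TMM and library-total scaling, edgeR 4.0.16 and DESeq2 1.42.0 on the recovered reads, robust variances, no variance trend, a replicate block and leaving out each liver. Counting intervals and floors cover counting error only.

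The members, lists and tests were chosen with earlier results of these data known. Every member is named. Liver values are given for called members with a mean of 20 or more, the 6 called members under 20 with the largest difference, and 11 members named by choice; of each pathway list, up to 4 called genes with the smallest adjusted p. Per-kilobase levels used the exon union of GENCODE M21. No sequence of proteins was used.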

Additional observations from a re-analysis of the deposited data

Results flagged for a closer look

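In groups of 4 livers, 1 liver lay far from the other 3 (its gap over the range of the group above Dixon's 95% critical value) in 12 of 70 groups examined, which cover the members given liver by liver and the targeted genes; chance alone marks about 1 in 20 groups of continuous values, a rate that does not carry over to counts of a few reads, and the values of Il11, Il6 and Il10 named here rest on 0 to 2 reads per control, under the floor of 3. Control 4 was such a liver in 4 of them, each time as the highest control: Il1r2 at 18.3 normalised reads, Il1rn at 172, Il1rl2 at 22.9 and Il10 at 2.29. Control 3 stood alone for Il11 at 2.10, for Il12rb1 as the lowest control at 30.5 and for Zfp36l2 as the lowest at 997. Control 1 stood alone for Il6 at 1.03, the only control with a read of it, and for Il3ra as the lowest at 28.8. Among dKO livers, dKO 1 was the lowest for Il15 at 33.2 and for Il13ra1 at 938, and dKO 4 was the highest for Zfp36l1 at 267.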

How the results depend on the processing

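Over 20 alternatives, 20 of the 31 called members kept their call in every alternative that tested them, 11 lost it in at least 1, and 8 of the 23 uncalled members were called by some alternative. Members called higher ranged from 20 to 27 and ligands from 6 to 10. Members called lower fell from 7 to 4 with scaling by library total and with no variance trend (4 to 6 with a liver left out), and ligands called lower from 1 to 0 with both (0 to 1 with a liver left out). The nonamer was in 4 members and the heptamer in 18. With a replicate block the counts were 24 higher and 6 lower, Il6ra losing its call (adjusted p = 0.0712). Livers with the same number showed little common deviation (correlations 0.032, -0.069, 0.037 and 0.077). The labels do not say what the number stands for, and these values cannot show it. Signs reversed only in uncalled members: Il10 with edgeR (0.24) and DESeq2 (0.27), Il17rc with library totals (0.022) and Il4i1 with quantile normalisation (-0.077). With 1 liver left out, the log2 difference ranged from -0.85 (without dKO 2) to 0.27 (without dKO 1) for Il10, from -0.53 to 0.22 (without control 4) for Il18r1, from -0.24 to 0.080 (without control 4) for Il20rb, from -0.69 to 0.23 (without dKO 2; 0.14 without control 4) for Il27, and from -0.51 to 0.30 (without dKO 2; 0.29 without control 1) for Il2ra. The cause was not tested. Genes with most values under the floor of 3 reads, such as Il10 and Il11ra2, are limited by depth.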
